A study of Mus musculus with 12 samples.

Results

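The 8 genes described here carry out or control antigen presentation by MHC class II. They were chosen by name, with earlier results of these data known. They are H2-Aa, H2-Ab1, H2-Eb1, H2-DMa, H2-DMb1, Cd74, Ciita and Ctss, and all 8 had a probe set assigned to a single gene, among 11807 genes with such a probe set. Transcript levels were measured in flash-frozen colon and stomach of 16 week old C57BL/6 mice that were knockout (KO), heterozygous (HET) or wild type (WT) for Spdef, an ETS family transcription factor of mucus-producing epithelial cells. The 12 samples, each hybridised to 1 Affymetrix mouse array (a chip that reads each transcript with a set of short probes), formed 6 groups of 2: colon KO, colon HET, colon WT, stomach KO, stomach HET and stomach WT. All groups shared the strain and the age, and no treatment was given. The sex of the mice, the making of the Spdef allele and the number of animals behind the 2 samples of a group are not in the labels. Each p-value therefore rests on the spread between samples, part or all of which may be technical. Whether same-numbered colon and stomach samples came from the same mouse is not in the labels either, and the tissue tests take them as independent. In whole tissue, fewer cells of a type and less RNA per cell cannot be told apart.

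MHC class II molecules are heterodimers that display peptides from endocytosed protein to CD4 T cells, and they are carried mainly by dendritic cells, macrophages and B cells, with an inducible share on gut epithelium. H2-Aa and H2-Ab1 encode the alpha and beta chains of the I-A molecule, and H2-Eb1 the beta chain of I-E, whose alpha chain gene H2-Ea is defective in C57BL/6 mice. Cd74 encodes the invariant chain that fills the groove during transport, Ctss the protease cathepsin S that trims the invariant chain in endosomes, H2-DMa and H2-DMb1 chains of the peptide-exchange chaperone H2-DM, and Ciita the transactivator that switches class II promoters on. CIITA does not bind DNA itself but is recruited to an enhanceosome that assembles on the X and Y boxes upstream of these genes.

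The promoter sequences of 4 of the genes are shown because they carry those boxes, or, for Ctss, an element of a different kind. The 150 bases before the annotated start are from RefSeq (GRCm38.p6) and read 5′ to 3′ on the strand of the gene. Capitals mark the X box core CTNGNAAC and the Y box core TGATTGG in the first 3, and in Ctss the core GAAANNGAAA of an interferon-stimulated response element (ISRE).
H2-Aa (chr17:34287824-34287973, minus strand): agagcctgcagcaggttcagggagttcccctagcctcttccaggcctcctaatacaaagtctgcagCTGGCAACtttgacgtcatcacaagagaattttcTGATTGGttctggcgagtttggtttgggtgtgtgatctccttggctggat
H2-Eb1 (chr17:34305717-34305866, plus strand): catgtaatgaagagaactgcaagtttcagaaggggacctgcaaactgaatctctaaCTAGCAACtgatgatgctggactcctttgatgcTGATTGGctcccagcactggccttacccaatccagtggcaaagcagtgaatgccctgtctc
H2-DMb1 (chr17:34153041-34153190, plus strand): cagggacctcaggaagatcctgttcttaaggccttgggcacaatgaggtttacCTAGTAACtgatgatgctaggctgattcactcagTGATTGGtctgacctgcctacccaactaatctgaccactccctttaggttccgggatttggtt
Ctss (chr3:95526636-95526785, plus strand): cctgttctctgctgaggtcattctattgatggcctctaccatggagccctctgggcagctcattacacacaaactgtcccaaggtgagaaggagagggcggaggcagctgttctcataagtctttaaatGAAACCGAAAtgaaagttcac

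A promoter window was at hand for 5 of the 8 genes. The 3 motifs were searched on both strands of 32851 windows of 300 bases, from 250 before to 50 after each annotated start, and none of the matches reported here overlap. The Y core occurred in 7.82% of all windows, the X core in 13.2% and the ISRE core in 3.44%. An X core that began 20 to 50 bases before a Y core on the strand of the gene occurred in 16 windows (0.0487%). Those 16 included H2-Aa, H2-Eb1 and H2-DMb1, where the X core began 34, 33 and 34 bases before the Y core. In H2-Aa the X core ran from 84 to 77 and the Y core from 50 to 44 bases before the start. The form of the X core was chosen after these windows had been read, so the share describes the windows and is no test. H2-DMb2, the near-identical neighbour of H2-DMb1, held the Y core alone, the 2 windows of H2-DMa held none of the motifs, and Ctss held the ISRE core alone, from 21 to 12 bases before the start. A match describes letters in a window and shows neither a bound factor nor its absence.

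**Figure D1:**
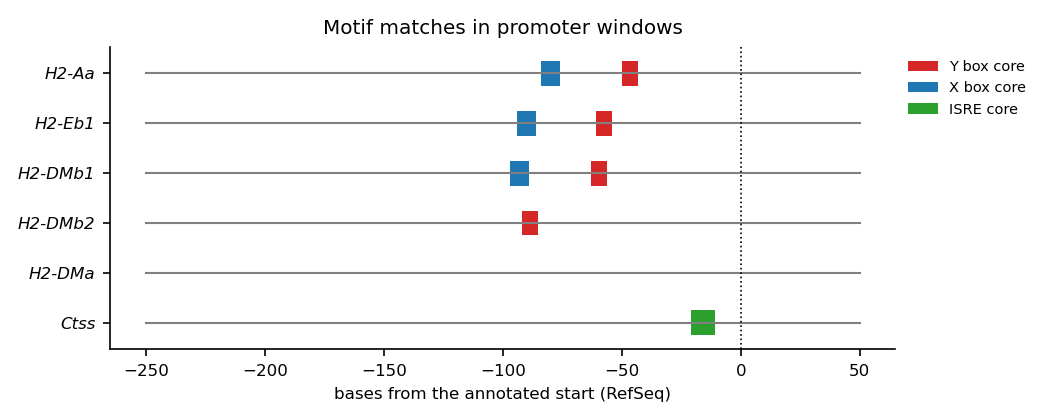
Positions of motif matches in promoter windows of 300 bases; the x axis gives bases from the annotated start and each line is 1 gene, with H2-DMb2 added as the neighbour of H2-DMb1. H2-Aa, H2-Eb1 and H2-DMb1 have an X core 33 or 34 bases before a Y core, and Ctss has only an ISRE core.

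Levels are given as log2(intensity + 16) after quantile normalisation, a scale that understates the change of dim genes, and levels of different genes are not compared because each probe set has its own response. Tests within a tissue took the genes at or above a filter level of 6.53, the 40th percentile, in 2 or more of its arrays, and comparisons of the tissues those above it in any 2 arrays. Gene-wise tests are limma's, with Benjamini-Hochberg adjustment over all genes tested and a threshold of 0.05, and the number of arrays limits the precision. 1 array stood apart: the array labelled colon WT 2 had a mean correlation across genes with the other colon arrays of 0.927, against 0.954 to 0.968 for those, and read 6.65 for the colonocyte enzyme Car1 (13.50 to 14.01 in the other 5) and 14.42 for the ileal bile acid binding protein Fabp6 (5.84 to 8.73). The 9 small intestine genes averaged 12.16 on it, against 5.28 to 6.52 on the other colon arrays, and Spdef read 8.74 on it, below both colon KO arrays (9.08 and 9.25). Most comparisons that include this array are therefore also given without it. Spdef read 10.27 and 9.81 in colon HET arrays and 10.97 in colon WT 1. In stomach it read 8.86 and 8.63 in KO, 9.06 and 8.94 in HET and 9.19 and 8.96 in WT arrays. The KO arrays thus kept a Spdef signal, in stomach little below that of WT. Gastric gland genes averaged 5.11 to 5.40 in colon arrays and 13.91 to 14.05 in stomach arrays. Xist read 5.70 in colon KO 2 and 7.48 in stomach KO 2, against 12.34 to 12.86 in the other 10 arrays. No HET or WT array was low for Xist, so in both tissues the KO comparisons are partly mixed with this difference between samples. The submitters' processing notes name RMA for both stomach KO arrays and colon WT 1, and MAS5 for the other 9 arrays. The trimmed mean intensity was 500.1 on all arrays under both notes, so the notes were not matched by a difference in overall scale. In stomach the note and the KO genotype cannot be told apart.

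The class II genes were higher in colon than in stomach. The 6 that reached the filter level in both tissues all passed the test, with fitted colon minus stomach differences between 0.81 and 3.32 on the log2 scale, where 19.0% of 7378 genes of that kind were called higher in colon. Their median difference was 1.32, against -0.06 over those genes. H2-DMb1 reached the filter level in 5 colon arrays and in no stomach array, so it was tested only through the tissue where it was higher and is left out of these counts. Cathepsin S had the largest difference of the 6, and the I-A chains and the invariant chain were 2.47-fold to 2.66-fold higher. All 6 passed again without the array labelled colon WT 2 (21.0%), with differences of 3.26 for Ctss, 1.31 for Cd74, 1.30 for H2-Ab1, 1.28 for H2-Aa, 0.97 for H2-DMa and 0.69 for H2-Eb1. Over the 20 other ways of processing that gave values for this comparison, each of the 6 stayed past the threshold, with adjusted p-values up to 0.0291.

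**Figure D2:**
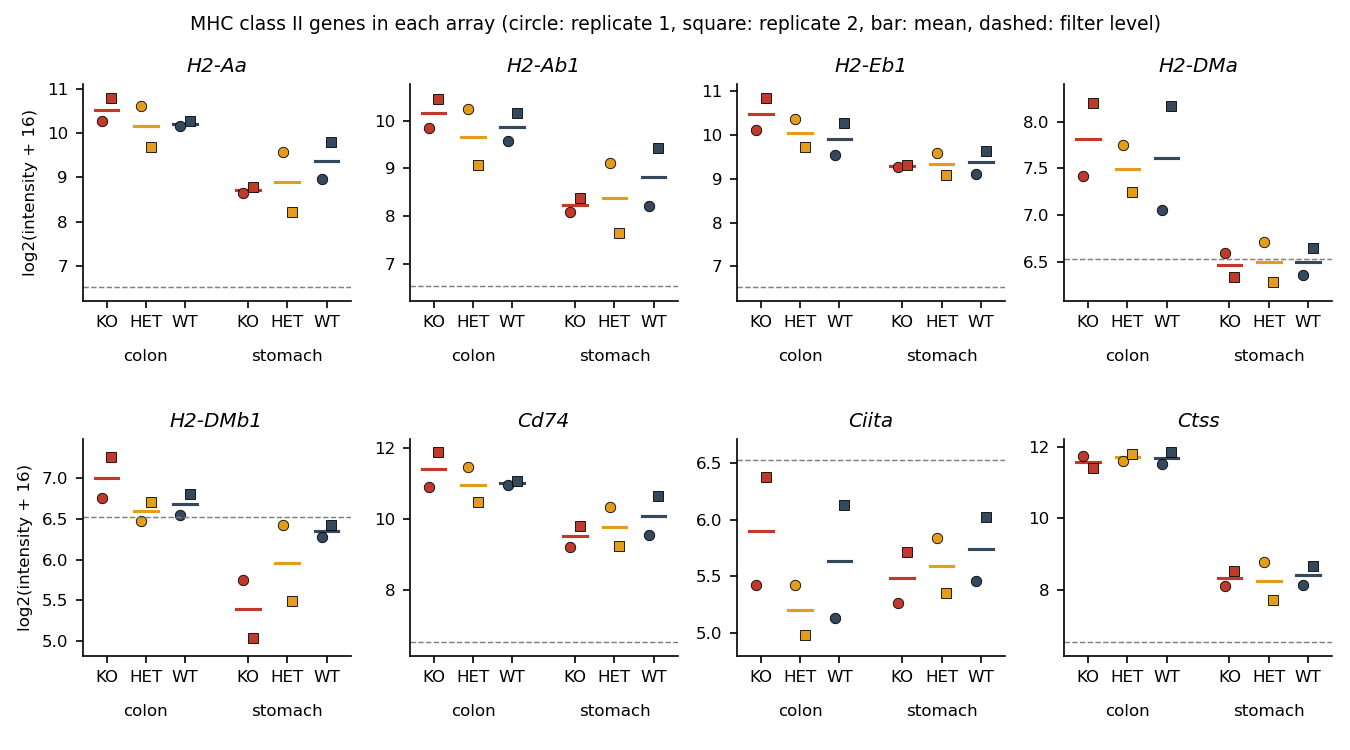
Level of each class II gene, as log2(intensity + 16) after quantile normalisation, in the 12 arrays; circles are replicate 1, squares replicate 2, bars the group means and the dashed line the filter level of 6.53. Colon arrays lie above stomach arrays for Ctss without overlap, while Ciita lies below the dashed line throughout.

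Cathepsin S, which trims the invariant chain in endosomes, gave the clearest separation. Ctss read 11.73 and 11.40 in colon KO, 11.61 and 11.80 in colon HET and 11.51 and 11.83 in colon WT arrays. It read 8.10 and 8.53 in stomach KO, 8.76 and 7.72 in stomach HET and 8.14 and 8.66 in stomach WT arrays. Every colon array was far above every stomach array. The difference was 3.32 (SE 0.19, 95% confidence interval 2.89 to 3.76, adjusted p = 1.0e-06), and it was near that size in KO (3.25), HET (3.46) and WT (3.27) tissue.

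The peptide-binding chains of I-A moved as a pair. H2-Aa, the alpha chain, read 10.28 and 10.79 in colon KO, 10.61 and 9.69 in colon HET and 10.17 and 10.27 in colon WT arrays. In stomach it read 8.65 and 8.78 in KO, 9.57 and 8.23 in HET and 8.97 and 9.80 in WT arrays. The tissues met at their edges, since stomach WT 2 (9.80) was above colon HET 2 (9.69). The colon minus stomach difference was 1.30 (SE 0.26, adjusted p = 0.0030), or 2.47-fold.

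H2-Ab1, the beta chain, read 9.85 and 10.46 in colon KO, 10.25 and 9.07 in colon HET and 9.56 and 10.16 in colon WT arrays. Its stomach levels were 8.08 and 8.39 in KO, 9.12 and 7.65 in HET and 8.21 and 9.44 in WT arrays. The highest stomach arrays, HET 1 and WT 2, again overlapped the lowest colon array, HET 2. The difference was 1.41 (SE 0.33, adjusted p = 0.0067). The array holds 2 further probe sets for H2-Ab1, which averaged 8.55 in colon and 7.18 in stomach for 1 of them, and 9.58 in colon and 8.09 in stomach for the other.

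H2-Eb1, the beta chain of I-E, had the smallest fitted difference of the 6 genes counted. It read 10.12 and 10.84 in colon KO, 10.38 and 9.73 in colon HET and 9.55 and 10.28 in colon WT arrays. It read 9.28 and 9.31 in stomach KO, 9.59 and 9.09 in stomach HET and 9.12 and 9.64 in stomach WT arrays. Only stomach HET 1 and stomach WT 2 exceeded the lowest colon array, WT 1. The colon minus stomach difference was 0.81 (SE 0.20, adjusted p = 0.0086), or 1.75-fold. Of the levels of its partner gene H2-Ea, over 3 probe sets and 12 arrays, 2 of 36 reached the filter level, with a range of 4.09 to 6.79.

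Cd74, the invariant chain, read 10.92 and 11.88 in colon KO, 11.47 and 10.49 in colon HET and 10.97 and 11.09 in colon WT arrays. It read 9.22 and 9.82 in stomach KO, 10.35 and 9.23 in stomach HET and 9.56 and 10.65 in stomach WT arrays. As for the I-A chains, stomach WT 2 exceeded colon HET 2 and no other colon array. The difference was 1.33 (SE 0.30, adjusted p = 0.0051), or 2.51-fold.

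The H2-DM chaperone genes were dim in stomach. H2-DMa read 7.42 and 8.21 in colon KO, 7.75 and 7.25 in colon HET and 7.06 and 8.17 in colon WT arrays. It read 6.59 and 6.33 in stomach KO, 6.71 and 6.28 in stomach HET and 6.35 and 6.64 in stomach WT arrays. All colon arrays were above all stomach arrays, and with the stomach mean below the filter level H2-DMa was at least 2.16-fold higher in colon. The limma test was of the fitted difference of 1.16 (adjusted p = 0.0028).

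H2-DMb1 read 6.76 and 7.27 in colon KO, 6.48 and 6.71 in colon HET and 6.55 and 6.81 in colon WT arrays. It read 5.75 and 5.03 in stomach KO, 6.42 and 5.49 in stomach HET and 6.28 and 6.43 in stomach WT arrays. The gap between colon HET 1 and stomach WT 2 was small and lay below the filter level, so no separation of the tissues is counted for it. With its stomach mean at the filter level the gene was at least 1.17-fold higher in colon. The limma test (adjusted p = 0.0104) was of the fitted difference of 0.86, which is not a measured size. The gene entered that test only through colon, so its call is not counted. H2-DMb1 and its paralogue H2-DMb2 have near-identical sequences and their signals may mix. H2-DMb2 itself averaged 7.33 in colon and 6.33 in stomach and missed the threshold (adjusted p = 0.0771). Of the 6 genes that reached the filter level in both tissues, Ctss and H2-DMa had all 6 colon arrays above all 6 stomach arrays, which held for 10.5% of all such genes. The same 2 genes did so without the array labelled colon WT 2 (13.4%).

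Ciita did not reach the filter level on any array. Its brighter probe set read 5.42 and 6.37 in colon KO, 5.42 and 4.98 in colon HET and 5.13 and 6.13 in colon WT arrays. In stomach it read 5.26 and 5.72 in KO, 5.83 and 5.35 in HET and 5.46 and 6.03 in WT arrays. All 12 values lay below the filter level, as did those of its other probe set, so Ciita entered no test and no fold is given.

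Within single genotypes, 2 arrays against 2, the fitted differences of these 6 genes were all positive, while the number of calls varied. In KO tissue all 6 passed the test (8.82% of genes were called higher in colon), with differences of 1.18 to 3.25. Both stomach KO arrays carry the RMA note and both colon KO arrays the MAS5 note, so the note and the tissue cannot be told apart in KO tissue. In HET tissue, where all 4 arrays carry the MAS5 note, Ctss alone passed (8.53%), with differences of 0.71 to 3.46. In WT tissue Ctss alone passed (9.22%), with differences of 0.54 to 3.27. The WT count was again 1 of 6 without the array labelled colon WT 2 (10.2%), with differences of 0.17 to 3.09. H2-DMb1, with its stomach mean at the filter level, was at least 1.40-fold higher in KO, 1.04-fold in HET and 1.11-fold in WT colon.

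With H2-DMb1 counted, the KO count was 7 of 7 (10.4% of all 8452 genes tested). On the same basis the HET count was 1 of 7 (10.1%) and the WT count 1 of 7 (10.8%). The KO count with H2-DMb1 included fell without colon KO 2, without stomach KO 1 or without stomach KO 2, each of which leaves 1 array in a group. The share of all genes called in those fits was not compared, so whether the fall was particular to these genes was not tested. The higher count in KO than in HET or WT tissue thus depends on single arrays. Over all ways of processing, the median fitted difference of the genes tested ran from 1.40 to 2.08 in KO tissue. It ran from 0.58 to 1.74 in HET and from 0.42 to 1.26 in WT tissue. Whether the tissue difference itself varied with genotype was tested as the KO minus WT effect in colon minus that in stomach, reported with the genotype comparisons.

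**Figure D3:**
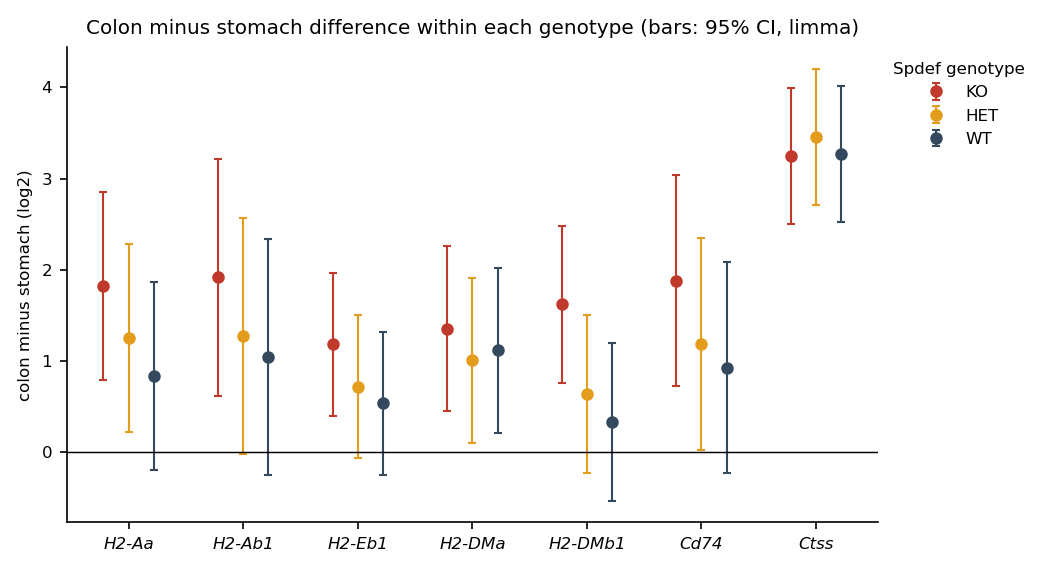
Colon minus stomach difference on the log2 scale for the 7 tested genes, within KO, HET and WT tissue (points are the fitted differences, bars 95% confidence intervals from limma, 2 arrays against 2). All points are above 0; stomach means of H2-DMa and H2-DMb1 lie below the filter level, so their plotted differences are fitted values and not bounds.

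Genes that work with the class II genes did not move as a block between the tissues. Of 20 tested genes of a wider class II pathway list, 5 were higher in colon and 6 lower, with a median of 0.16 (0.0 with means below the filter level set to it), where 21.3% of all genes were called higher and 27.0% lower. The counts were 5 higher and 6 lower of 19 without the array labelled colon WT 2, where 23.1% of all genes were called higher. The higher ones were Sppl2a (0.97, SE 0.17), the protease that clears the last fragment of the invariant chain, Lgmn (0.85, SE 0.14), an asparagine-specific endosomal protease, Ctsz (0.77, SE 0.11), Ctsl (0.70, SE 0.18) and Ap1s2 (0.59, SE 0.13). The lower ones were the thiol reductase Ifi30 (-1.23, SE 0.09), the cathepsins Ctsd (-1.07, SE 0.10), Ctsh (-0.94, SE 0.16) and Ctsb (-0.65, SE 0.07), the cathepsin inhibitor Cst3 (-0.78, SE 0.13) and Nfyc (-0.42, SE 0.09), a subunit of the Y box factor. Their adjusted p-values were at most 0.0106. The subunits of the X box factor RFX did not pass, with differences of -0.14 for Rfx5, -0.16 for Rfxap and 0.21 for Rfxank.

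Most tested MHC class I genes, and 8 of 13 tested interferon gamma response genes, were also higher in colon, where 21.3% of all genes were called higher. Of 11 tested class I presentation genes 10 were higher, none was lower, and the median was 0.99. They included the heavy chain genes H2-K1 (1.0, SE 0.10) and H2-D1 (0.91, SE 0.12) and the immunoproteasome subunits Psmb10 (2.45, SE 0.08), Psmb8 (1.60, SE 0.27) and Psmb9 (0.99, SE 0.19). The exception, the chaperone gene Calr, had a difference of -0.21 (adjusted p = 0.275). The 13 interferon gamma genes, of which none was lower, had a median of 0.86 (0.70 with means below the filter level set to it). Those that passed included the transcription factors Irf8 (2.61, SE 0.20) and Irf1 (2.28, SE 0.09) and the receptor chain Ifngr2 (1.65, SE 0.17).

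Markers of immune cells gave mixed counts between the tissues, some of them near the 21.3% of all genes called higher in colon. Of 12 tested macrophage genes 5 were higher in colon (median 0.45, or 0.40 with means below the filter level set to it), namely Mertk (2.52), Cd14 (1.92), C1qb (0.68), C1qa (0.48) and C1qc (0.41). None of 7 tested B cell genes and neither of 2 tested dendritic cell genes passed, 1 of 3 T cell genes passed (Thy1, 0.95, which stromal and nerve cells also express), and 3 of 10 genes shared by all leukocytes passed. Most dendritic cell and T cell markers were below the filter level in all 6 arrays of at least 1 tissue: 4 of 9 dendritic cell genes in colon and 7 of 9 in stomach, and 7 of 10 T cell genes in colon and 4 of 10 in stomach. Of 5 tested plasma cell genes 3 were higher in colon, among them Jchain (5.86, SE 0.27), the joining chain of secreted antibody, and 2 were lower. Prdm1, also among the 3, was below the filter level on every stomach array (5.99 to 6.47) and so was tested only through colon. Without the array labelled colon WT 2 the counts higher in colon were 10 of 11 for class I, 8 of 13 for interferon gamma, 5 of 12 for macrophages, 2 of 10 for all leukocytes and 0 of 7 for B cells. The part of these cells in the tissue difference of the class II genes was not tested.

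No class II gene passed the test for an effect of Spdef genotype in either tissue. In colon, 0 of 7 tested genes differed between KO and WT (limma, adjusted p-values of 0.532 to 0.917), against 0.0505% of 7913 genes, and at an unadjusted p under 0.05 the count was also 0, against 11.2% of all genes. The differences ran from -0.11 for Ctss to 0.57 for H2-Eb1 (SE 0.35, 95% confidence interval -0.22 to 1.35), with a median of 0.32 against 0.06 over all genes. The intervals are wide: for H2-Ab1 the difference of 0.29 had an interval of -1.01 to 1.59.

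H2-Aa was the 1 gene of the 7 whose colon KO arrays (10.28 and 10.79) did not overlap the colon WT arrays (10.17 and 10.27), where 31.1% of all genes tested had such a separation. The gap to the array labelled colon WT 2 was narrow. For the other 6 the 2 KO arrays overlapped the 2 WT arrays. Without that array, both KO arrays lay above colon WT 1 for 5 of the 7 genes, where 63.7% of all genes had both on 1 side of it. The spread inside groups was of the size of the differences: over the 7 genes and 3 colon groups, the 2 arrays of a group differed by 0.10 to 1.18, with a median of 0.59.

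Without the array labelled colon WT 2, all 7 KO minus WT differences in colon were positive, with a median of 0.46, and again none passed (0.307% of genes did). H2-Eb1 then had the largest, 0.93 (SE 0.37, unadjusted p = 0.0325, adjusted p = 0.362), followed by H2-DMa at 0.75 (SE 0.39), and Ctss was at 0.05. Without colon WT 1, which leaves only colon arrays of the MAS5 note, the differences ran from -0.36 for H2-DMa to 0.31 for Cd74. Without colon KO 2, the array of low Xist, they ran from -0.19 for H2-DMa to 0.21 for H2-Eb1. The size and, for Cd74, H2-Ab1, H2-DMa and Ctss, the direction thus changed with single arrays.

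No class II gene passed the test between HET and WT colon. The HET minus WT differences ran from -0.20 for H2-Ab1 to 0.14 for H2-Eb1, and 0 of 7 passed (0.0253% of genes did). At an unadjusted p under 0.05 the count was also 0 of 7, against 9.63% of all genes. The 95% confidence intervals of the differences were wide, -1.21 to 1.11 for Cd74 and -1.10 to 0.96 for H2-Aa. Without the array labelled colon WT 2 they ran from -0.02 for H2-Aa to 0.44 for H2-DMa and 0.50 for H2-Eb1, with a median of 0.09, and again none passed (0.0767%). Between KO and HET colon the differences ran from -0.14 for Ctss to 0.50 for H2-Ab1, and 0 of 7 passed (0.0253% of genes did). The count at an unadjusted p under 0.05 was 0, against 4.15% of all genes.

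In stomach none of the 6 tested genes passed the KO against WT test (limma, adjusted p = 0.9995 for each; 0.0127% of 7858 genes passed). None of the 6 had an unadjusted p under 0.05, against 3.68% of all genes. The differences were -0.67 (SE 0.45) for H2-Aa, -0.59 (SE 0.57) for H2-Ab1 and -0.58 (SE 0.51) for Cd74, and they were -0.09 for Ctss and -0.08 for H2-Eb1. For H2-DMa both means were below the filter level, and H2-DMb1 was not tested because no stomach array reached that level.

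H2-Aa was again the 1 tested gene, here of 6, without overlap, its stomach KO arrays (8.65 and 8.78) lying below the stomach WT arrays (8.97 and 9.80), where 37.2% of all genes tested had such a separation. The difference between stomach WT 2 and stomach WT 1 was 0.83 for H2-Aa, more than the KO minus WT difference. Without stomach WT 2 the differences were -0.26 for H2-Aa, 0.03 for H2-Ab1 and -0.03 for Cd74, and without stomach WT 1 they were -1.08, -1.20 and -1.13 for the same genes. Leaving H2-DMa aside, the HET minus WT differences ran from -0.48 to -0.04 (0 of 6 passed, 0.0% of genes did). The KO minus HET differences ran from -0.27 to 0.07 (0 of 6 passed, 0.0127% did). No class II gene had an unadjusted p under 0.05 in either, against 2.27% and 1.92% of all genes in the same order.

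The KO minus WT effect did not pass the test for a difference between the tissues in any of 7 genes (0.0237% of 8452 genes did). The colon effect minus the stomach effect ran from -0.02 for Ctss to 0.99 for H2-Aa over the 6 genes measured in both tissues. At an unadjusted p under 0.05 none of the 6 was counted, against 4.61% of all genes tested. H2-DMb1 had a fitted value of 1.29 (SE 0.54, unadjusted p = 0.0406, adjusted p = 0.886), but its stomach values all lay below the filter level, so that value is not a measured size. With the array labelled colon WT 2 left out, the 6 ran from 0.14 for Ctss to 1.17 for H2-Ab1, and again none of the 7 passed.

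**Figure D4:**
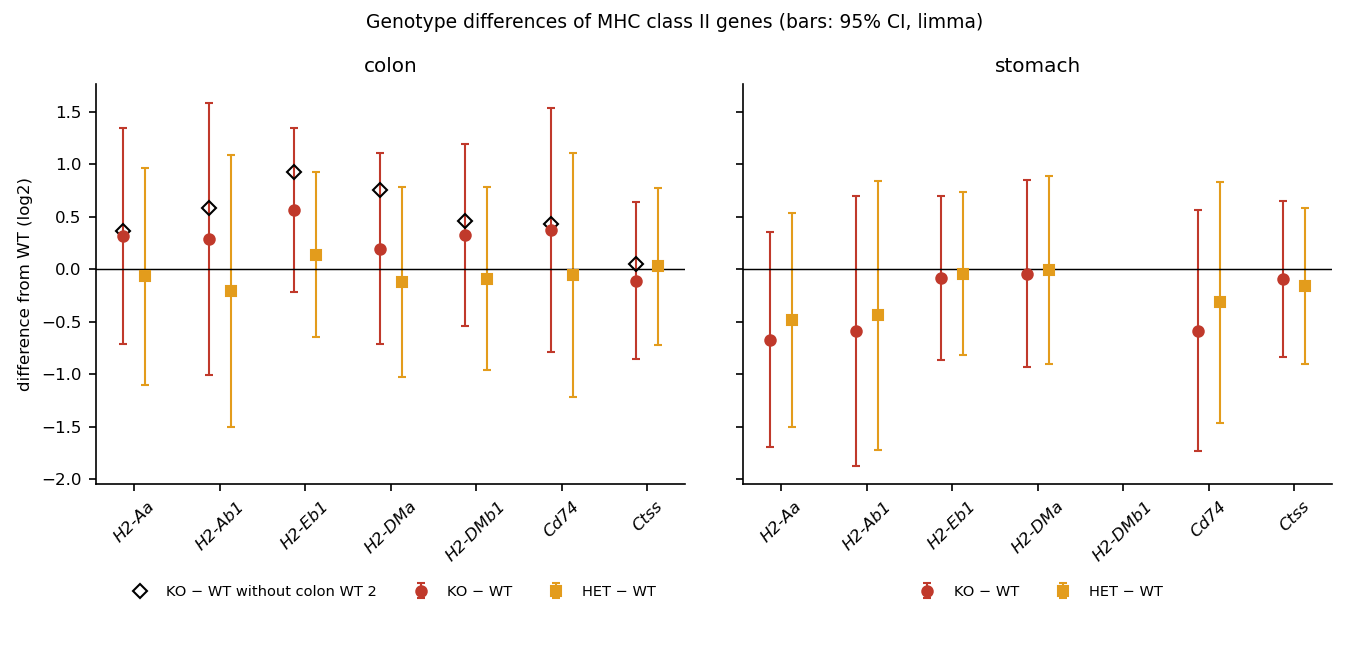
KO minus WT and HET minus WT differences on the log2 scale in colon (left) and stomach (right); bars are 95% confidence intervals from limma, 2 arrays against 2, and open diamonds give KO minus WT without the array labelled colon WT 2. All intervals include 0; H2-DMb1 was not tested in stomach, and Ciita in neither tissue.

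Within a tissue, most of the class II genes varied together from array to array, H2-DMb1 less closely and Ctss in stomach only. The mean that follows includes Ciita, below the filter level on every array, and H2-DMb1, below it on every stomach array. The mean level of the 8 genes was 9.06 and 9.65 in colon KO, 9.24 and 8.71 in colon HET and 8.81 and 9.34 in colon WT arrays. In stomach it was 7.62 and 7.74 in KO, 8.29 and 7.38 in HET and 7.76 and 8.41 in WT arrays. Colon KO 2 and stomach WT 2 were thus the highest arrays of their tissues, and HET 2 the lowest of both.

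H2-Aa, H2-Ab1, H2-Eb1 and Cd74 followed each other closely, with pairwise correlations of 0.83 to 0.97 over the 6 colon arrays and of 0.90 to 0.98 over the 6 stomach arrays. The colon values were 0.847 to 0.995 without the array labelled colon WT 2. Cathepsin S did so in stomach, where its correlation with the mean of the other 7 genes was 0.86, but not in colon, where it was -0.46 and its levels spanned only 11.40 to 11.83. The colon value for Ctss was -0.72 without the array labelled colon WT 2. On the same measure H2-DMb1 was at 0.62 in colon and 0.61 in stomach, H2-DMa at 0.91 and 0.76, and Ciita at 0.92 and 0.87. These correlations describe 5 or 6 arrays of 3 genotypes each and share the arrays' overall composition, so they carry no test.

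The gene of most similar pattern was Ptprc, the pan-leukocyte phosphatase CD45. After each gene was centred on its tissue mean, 7372 genes tested in both tissues were ranked by their correlation with the class II mean over the 12 arrays, as a description. Ptprc was first (r = 0.98), followed by Ly86 (0.96), which encodes the MD-1 partner of the lymphocyte receptor RP105, and Ms4a1 (0.95), the B cell antigen CD20. The other 7 of the first 10 were Gimap6, Tgtp1, Cd53, Bcl2a1a, Gimap4, Sash3 and Arhgdib, with r of 0.93 to 0.95. The median r over the genes ranked was -0.03, and 16 genes exceeded 0.9. Without the 2 arrays farthest from the median, stomach WT 2 and colon KO 2, the 10 genes had r of 0.89 to 0.97. Leaving out the array labelled colon WT 2 gave them r of 0.93 to 0.98, and 8 of them were again among the first 10.

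**Figure D5:**
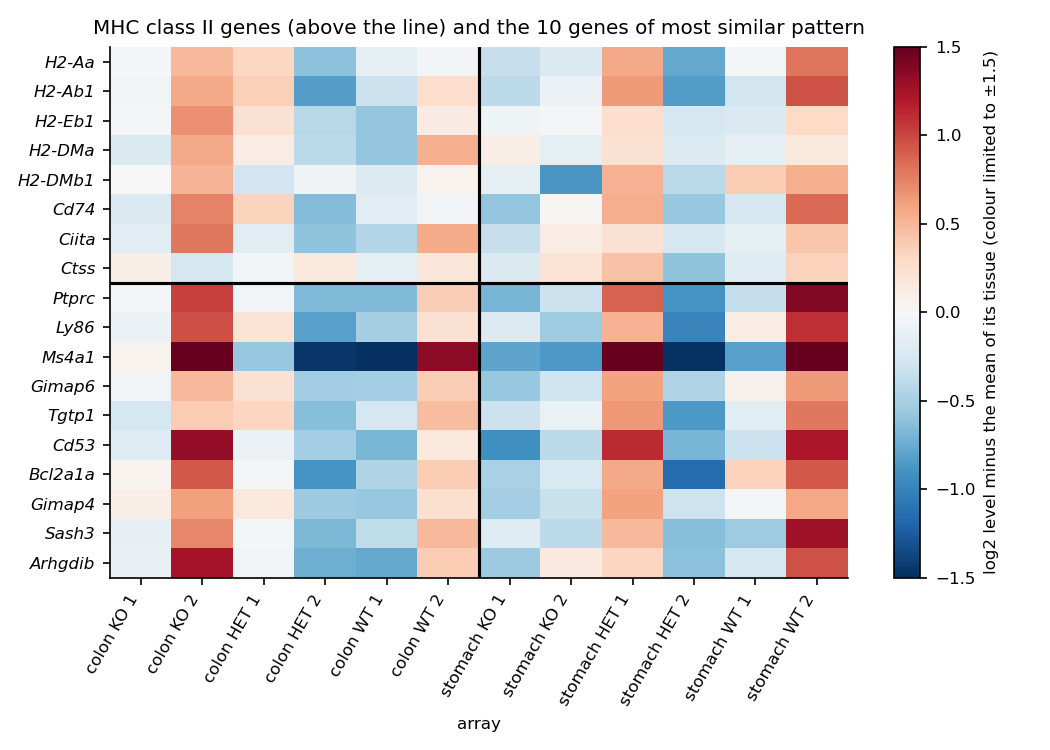
Level minus the mean of its tissue (log2, colour limited to ±1.5) of the 8 class II genes, above the black line, and of the 10 genes of most similar pattern, in the 12 arrays. Colon KO 2, stomach HET 1 and stomach WT 2 are high and colon HET 2 and stomach HET 2 low in most lines, while Ctss in colon is nearly flat.

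Most marker lists of immune cells followed the class II genes from array to array, the plasma cell list least. The mean of 10 genes shared by all leukocytes was 8.09 and 8.95 in colon KO, 8.13 and 7.62 in colon HET and 7.76 and 8.36 in colon WT arrays. It was 6.96 and 7.32 in stomach KO, 8.25 and 7.0 in stomach HET and 7.32 and 8.59 in stomach WT arrays. The arrays high for class II were high for this list, and its correlation with the class II mean was 0.97 over 12 tissue-centred arrays and 0.95 without stomach WT 2 and colon KO 2. It was again 0.97 without the array labelled colon WT 2.

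Among the lists of immune cells the B cell list had the widest span of levels within each tissue, 1.91 in colon and 1.86 in stomach. The mean of 11 B cell genes was 5.64 and 6.92 in colon KO, 5.49 and 5.02 in colon HET and 5.22 and 6.19 in colon WT arrays, and 5.11 and 5.03 in stomach KO, 6.23 and 5.32 in stomach HET and 5.21 and 6.88 in stomach WT arrays. In each tissue 4 of the 11 were below the filter level in all 6 arrays. Ms4a1 alone read 6.64 and 8.73 in colon KO, 6.03 and 5.13 in colon HET and 5.08 and 7.94 in colon WT arrays. The follicle chemokine Cxcl13 read 10.03 in colon KO 2 and 8.61 in stomach WT 2, the highest array of each tissue.

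The correlations of the other lists with the class II mean, over 12 tissue-centred arrays, were 0.91 for B cells, 0.90 for lymphoid stroma, 0.88 for dendritic cells, 0.85 for T cells and 0.82 for macrophages. They were 0.68 for class I presentation, 0.51 for plasma cells (Spearman's rho 0.23) and 0.48 for the interferon gamma response. Without stomach WT 2 and colon KO 2 the first 5 were 0.83, 0.80, 0.87, 0.81 and 0.92 in the same order, and the others were 0.82 for class I presentation, 0.27 for plasma cells and 0.73 for the interferon gamma response. Spearman's rho over the 12 arrays was 0.56 for the interferon gamma response. The order of the last 2 lists thus changed with those arrays and with the coefficient. Leaving out the array labelled colon WT 2, the first 5 ran from 0.82 to 0.91, and the others were 0.71, 0.58 and 0.52. The mean levels of the dendritic cell list and of the T cell list lay below the filter level on all 12 arrays, so their correlations describe dim signals. All lists share the same arrays, so the correlations of all lists are descriptions, and the part of leukocyte content in the class II levels was not tested.

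No gene of these lists passed the KO against WT test in either tissue. The median KO minus WT difference was 0.66 in colon and -0.98 in stomach for the 10 genes shared by all leukocytes (0.66 and -0.87 with means below the filter level set to it). For 4 tested B cell genes in each tissue it was 0.75 in colon and -0.32 in stomach with such means set to the filter level, which was needed for 3 of them in colon and for all 4 in stomach. Cd79b, a chain of the B cell receptor, had KO minus WT differences of 0.81 in colon and -0.26 in stomach on that basis, without passing the test (limma, adjusted p = 0.626 in colon and 0.9995 in stomach). The leukocyte actin regulator Coro1a had a difference of -1.79 (SE 0.82) in stomach. The macrophage list had medians of 0.42 in colon and -0.09 in stomach, with Cd14 at 1.15 (SE 0.40, adjusted p = 0.40) in colon. The medians were -0.20 in colon and -0.16 in stomach for 11 class I genes and -0.20 in colon and -0.06 in stomach for the interferon gamma genes tested. Without the array labelled colon WT 2 the colon medians were 0.81 for leukocytes, 0.47 for macrophages, -0.06 for class I and -0.08 for interferon gamma, and again no gene passed.

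5 of the 8 genes, the H2 genes, lie on chromosome 17, which also carries Spdef, and 136 protein-coding genes of the RefSeq order stand between Spdef and the nearest of them. None of the 5 passed the test between KO and WT in the tissues where it was tested.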

How the data were processed

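The authors deposited a linear intensity per probe set for 12 arrays, and the submitters' processing notes name MAS5 for 9 and RMA for 3, with no version; the build and settings are not given in the sources used here. Columns were matched to samples by accession, and groups were read from the sample titles. Of 22716 probe sets, 90 controls were left out, and 18003 had 1 gene in GEO's platform annotation, with symbols updated through RefSeq for 17977. The probe set of highest mean stood for each of 11807 genes.

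Intensities were taken as log2(intensity + 16) and quantile-normalised over all arrays. Each of 6 groups had its own mean in the model, fitted by limma 3.58.1 under R 4.3.3 (intensity trend, Benjamini-Hochberg adjustment, threshold 0.05) to genes above the 40th percentile (an intensity of 76.5) in at least 2 arrays. Where a group mean was below that level, folds and differences of single genes are bounds against it, unless called fitted, and list medians are given with such means set to it. Differences of single genes with an array left out, or under another way of processing, are fitted values and not bounds. The steps were tested on simulated data. Figures used Python 3.11.15 and matplotlib 3.10.9.

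The genes described and the gene lists were chosen with earlier results of these data known. Named genes are the 8 genes with all their probe sets, at most 4 genes a list with the largest KO minus WT difference in a tissue, those past the threshold, and the 10 of most similar pattern. Spdef, Xist, H2-Ea and Rfx5 are named beyond that rule, after their values were seen. A further 22 listed genes were not analysed here. Replicate numbers were checked for pairing between genotypes within a tissue. Deviations from the group means of same-numbered arrays correlated at -0.21 to 0.18, so the numbers showed no pairing across genotypes. Same-numbered colon and stomach arrays were not compared in this way, so a pairing of the tissues by mouse was not tested. Alternatives changed the quantile normalisation (none), the offset (1 or 64), the filter (none, or the array median), the intensity trend (none), the samples (each tissue alone, each array left out), the probe sets (all tested) and the replicate number (a block).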

Additional observations from a re-analysis of the deposited data

How the results depend on the processing

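Counts of class II genes past the threshold between genotypes were 0 under every alternative, and the colon against stomach count over genotypes was 7 of 7, or 6 of 6 with a filter at the array median, which dropped H2-DMb1. With the replicate number as a block the counts were 7 over genotypes, 3 in KO tissue (7 without the block) and 0 between genotypes. Tissue counts in this section take in H2-DMb1 where it passed the filter, though it was tested only through colon. The numbers showed no pairing across genotypes within a tissue, and pairing between tissues was not tested. The WT tissue count was 2 without quantile normalisation (1 with it). The KO tissue count fell on leaving out some single arrays, which leaves a lone array in a group. The share of all genes called under these alternatives was not set beside the counts. KO minus WT differences changed sign in 7 of 146 recomputed values in colon and 6 of 125 in stomach, all on leaving out 1 array. In colon the ranges were -0.11 to 0.85 for Cd74, -0.27 to 0.058 for Ctss, -0.014 to 0.60 for H2-Ab1 and -0.36 to 0.75 for H2-DMa. In stomach they were -1.08 to -0.26 for H2-Aa, -1.13 to -0.035 for Cd74, -1.20 to 0.029 for H2-Ab1, -0.34 to 0.17 for H2-Eb1, -0.19 to 0.10 for H2-DMa and -0.35 to 0.17 for Ctss. The cause was not tested. Each tissue could not be fitted alone for comparisons over both. A lone array left in a group is assumed to vary like the others. Ciita and stomach H2-DM signals near background limit what could be tested.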
